A study of Mus musculus with 16 samples.

Results

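Wnt ligands, their receptors and their secreted inhibitors were examined in cultured organs of Corti, together with the R-spondins, the ubiquitin ligases that set receptor levels, and the intracellular core from axin to the TCF factors. Genes were taken by symbol from the deposited table of normalized expression: every numbered Wnt, Fzd, Sfrp and Dkk, and Lrp5, Lrp6, Axin1, Axin2, Lef1, Tcf7, Tcf7l1, Tcf7l2, Ctnnb1, Znrf3, Rnf43 and Rspo1 to Rspo4. This gave 48 genes of the 21220 in the table: 17 Wnt ligands, 12 receptors, 6 secreted inhibitors, 6 R-spondins and E3 ligases, and 7 intracellular or nuclear proteins. The 16 RNA-seq libraries came from C57BL/6 mice of postnatal day 0 whose organs of Corti were kept for 3.5 days in vitro. The 4 groups of 4 libraries were heterozygous Rest(+/deltaExon4) cultures with 2 nM FK228, the same genotype with solvent (0.1% DMSO), wild-type cultures with 2 nM FK228, and wild-type cultures with solvent. FK228, also called romidepsin, inhibits class I histone deacetylases, and REST is a repressor of neuronal genes that recruits such enzymes. FK228 or solvent was present from day 1 to 1.5 and from day 3 to 3.5, when RNA was taken, and each library pooled 6 to 8 cultures. The labels do not say if the pools derive from separate litters, and p-values measure the spread between pools, which may be technical in part.

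Wnt proteins are secreted lipoproteins that bind Frizzled receptors. With the co-receptors Lrp5 or Lrp6, they stop the axin complex from degrading beta-catenin, which then activates target genes with TCF and LEF factors. Other Wnt and Frizzled pairs act without beta-catenin, among them the planar cell polarity pathway that orients hair bundles in the mouse cochlea. In the newborn mouse cochlea, Wnt signalling is known for its part in the proliferation of supporting cells that carry Lgr5.

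Library depth ran from 12361027 to 23611571 gene counts, so that 1 read corresponded to 0.0452 to 0.0787 CPM (counts per 1000000 counts of the library after TMM scaling). The labelled tissue held its markers: the summed level of 7 hair cell markers ran from 261 to 503 CPM and that of 8 supporting cell markers from 1977 to 3805 CPM over the libraries, with none at 0 in any group. Rest, counted over the whole gene, averaged 81.0 ± 4.80 CPM in heterozygous FK228 cultures, 88.3 ± 7.64 CPM in heterozygous solvent cultures, 73.8 ± 4.53 CPM in wild-type FK228 cultures and 81.4 ± 5.42 CPM in wild-type solvent cultures (SD, n = 4 each), which does not check for a missing exon. Y-linked transcripts, a measure of the sex mix of the pools, summed to 24.2 to 339 CPM over the libraries. ERCC spike-in RNA took 0.156% to 0.393% of gene and spike-in counts. When libraries were scaled by it instead of by TMM factors, the median over all genes of the FK228 effect was -0.72 (log2) in heterozygous and -0.16 in wild-type cultures, and the median genotype effect was -0.18 in solvent cultures and -0.74 in FK228 cultures. Changes given here are thus relative to most other genes of the same library. In RNA from whole cultures, fewer cells of a type and less RNA per cell cannot be told apart.

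Per kilobase of exons, Dkk3, a divergent Dickkopf protein, was the most abundant of the 48 transcripts in wild-type solvent cultures, with 194 ± 38.6 CPM per kb (SD, n = 4). Sfrp1, a secreted decoy that binds Wnt proteins, followed with 126 ± 11.1 CPM per kb, and Tcf7l2, the TCF factor also known as TCF4, with 111 ± 9.72 CPM per kb. The ranges of Sfrp1 and Tcf7l2 overlapped, and that of Dkk3 lay above both. Znrf3 came next with 63.9 ± 6.05 CPM per kb, then Axin2 with 24.5 ± 3.13 and Wnt5a with 23.7 ± 1.17 CPM per kb, whose ranges overlapped. Wnt5a was the first of the ligands, and Wnt9a, at 13.4 ± 0.956 CPM per kb, the second. Among receptors, Fzd9 had 13.5 ± 2.52, Fzd10 10.8 ± 2.70 and Fzd6 6.75 ± 0.258 CPM per kb. Below the Znrf3 level, neighbours in this order overlapped in range except between Wnt5a and Ctnnb1 and between Wnt6 and Wnt11.

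The first question was which of these transcripts differed between FK228 and solvent in each genotype. Of the 48 genes, 42 passed the filter on low counts and were tested with edgeR, and a gene was called at an adjusted p under 0.05 over 17125 genes. In heterozygous cultures 18 of the 42 were called, 6 higher and 12 lower with FK228, while 48.4% of all genes were called (23.8% higher, 24.7% lower). In wild type 17 were called, 9 higher and 8 lower, while 49.0% of all genes were called (23.7% higher, 25.3% lower). The shares of members called, 42.9% in heterozygous and 40.5% in wild-type cultures, were thus close to the share among all genes, so their number is not a result about the pathway. The median log2 fold change over the 42 was -0.16 in both genotypes, against 0.00 over all genes in heterozygous cultures and -0.01 in wild type. The FK228 and solvent libraries did not overlap for 11 of the 18 in heterozygous and 13 of the 17 in wild-type cultures. The same share was not counted over all called genes, so these are values and not results about the pathway.

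Set side by side, 5 genes were called higher in both genotypes (Wnt16, Rspo1, Znrf3, Ctnnb1 and Sfrp1) and 7 lower in both (Sfrp4, Wnt5a, Dkk2, Wnt9a, Fzd6, Sfrp2 and Axin2). Of these, Wnt16 and Rspo1 passed the filter through the FK228 libraries alone, so that a difference was built into their being tested. A further 6 were called in heterozygous cultures (Wnt11 higher; Wnt7b, Fzd1, Fzd2, Fzd10 and Lef1 lower), 5 in wild type (Fzd3, Fzd5, Lrp6 and Tcf7 higher; Rspo3 lower), and 19 in neither. None was called in opposite directions. A call in one genotype and not in the other does not show a difference. The FK228 effects differed between the genotypes for 0 of the 42 members by edgeR's interaction test, in which 0.0234% of all genes were called (0.0175% with a larger and 0.00584% with a smaller log2 change in heterozygous cultures). At an unadjusted p under 0.05 there were 3 members (Rspo3, Wnt11 and Lef1), and DESeq2 called 1, Rspo3.

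**Figure D1:**
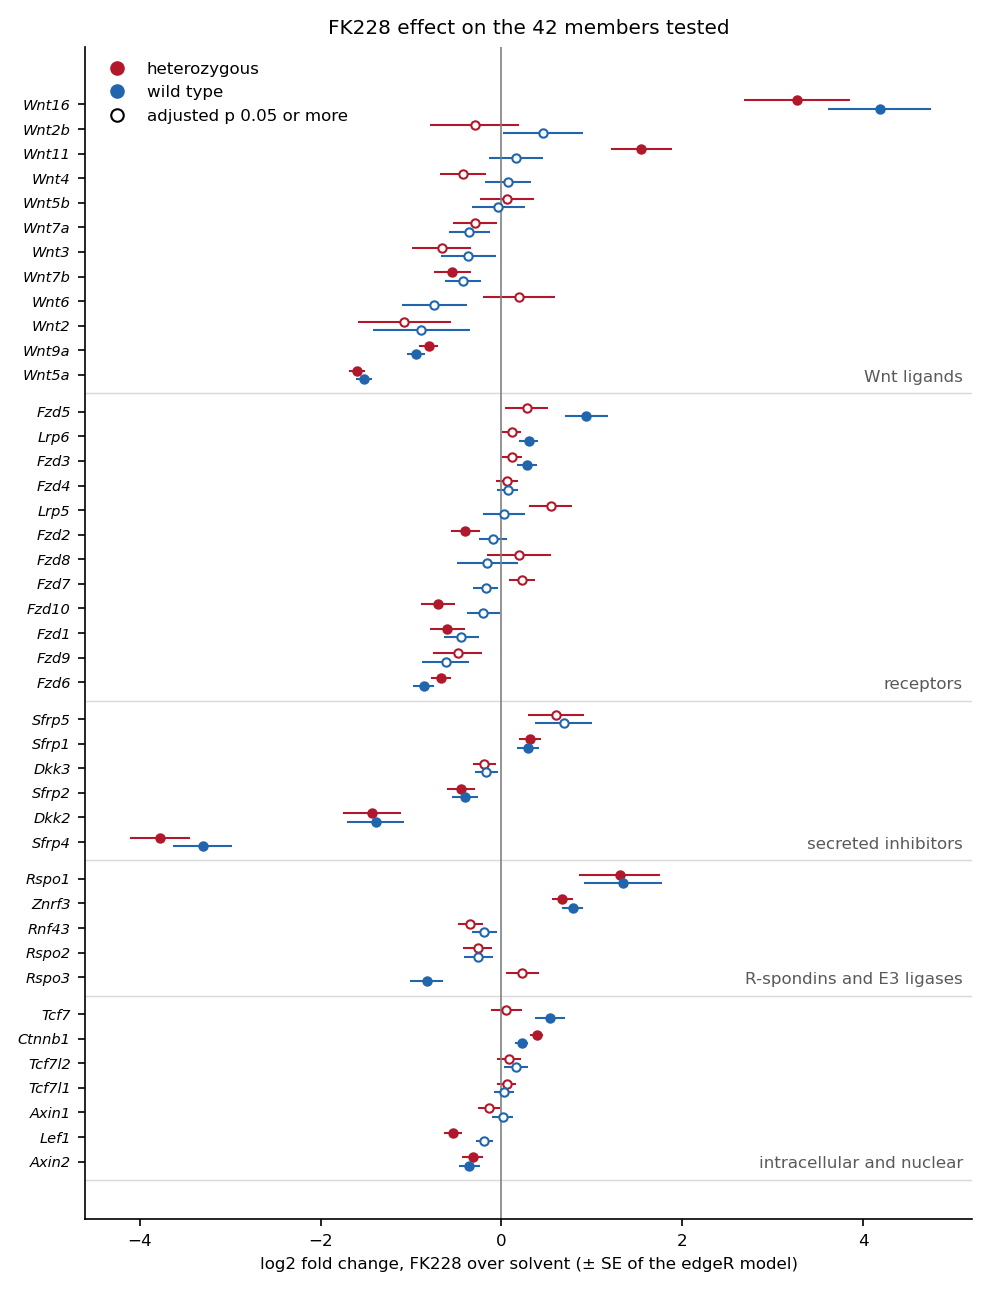
Log2 fold change of FK228 over solvent for the 42 members tested, by role, with heterozygous cultures in red above wild type in blue. Bars are SEs of the edgeR model, and open points have an adjusted p of 0.05 or more; Sfrp4 (-3.77 and -3.30) and Wnt16 (3.27 and 4.18) lie farthest from 0.

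For the genes called in both genotypes that have 1 promoter in RefSeq's table for GRCm38.p6, the 250 bases before the transcript start are shown. These genes moved the same way in both genotypes, but Wnt16 and Rspo1 were tested only through their FK228 libraries. The table holds promoters of 32 of the 48 genes; those called in both genotypes and missing from it are Wnt5a, Fzd6, Sfrp4, Sfrp1 and Znrf3. All 6 lie on the + strand: Wnt16 at chr6:22287977-22288226 and Rspo1 at chr4:124986180-124986429, which rose, and Wnt9a at chr11:59306680-59306929, Dkk2 at chr3:132085042-132085291, Sfrp2 at chr3:83766071-83766320 and Axin2 at chr11:108920099-108920348, which fell. Capitals mark GC boxes, GGGCGG or its reverse complement CCGCCC.
Wnt16: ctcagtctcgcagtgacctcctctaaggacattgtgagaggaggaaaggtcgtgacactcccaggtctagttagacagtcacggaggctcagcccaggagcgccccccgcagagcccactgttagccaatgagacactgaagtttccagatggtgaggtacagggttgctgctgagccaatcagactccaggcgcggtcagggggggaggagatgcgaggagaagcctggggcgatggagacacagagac
Rspo1: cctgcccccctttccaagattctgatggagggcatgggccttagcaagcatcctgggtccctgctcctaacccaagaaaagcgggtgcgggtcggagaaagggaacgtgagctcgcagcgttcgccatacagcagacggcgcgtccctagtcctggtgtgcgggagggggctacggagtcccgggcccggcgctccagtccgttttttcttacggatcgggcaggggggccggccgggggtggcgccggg
Wnt9a: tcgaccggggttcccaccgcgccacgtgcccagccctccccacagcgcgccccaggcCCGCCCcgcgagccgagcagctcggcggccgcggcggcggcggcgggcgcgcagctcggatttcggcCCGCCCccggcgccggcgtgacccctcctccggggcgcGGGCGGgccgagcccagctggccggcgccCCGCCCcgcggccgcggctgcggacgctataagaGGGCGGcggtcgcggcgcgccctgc
Dkk2: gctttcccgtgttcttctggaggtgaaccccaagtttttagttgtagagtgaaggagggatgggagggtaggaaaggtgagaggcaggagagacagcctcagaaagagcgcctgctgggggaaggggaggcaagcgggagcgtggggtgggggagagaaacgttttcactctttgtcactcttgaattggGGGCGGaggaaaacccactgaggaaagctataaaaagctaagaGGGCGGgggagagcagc
Sfrp2: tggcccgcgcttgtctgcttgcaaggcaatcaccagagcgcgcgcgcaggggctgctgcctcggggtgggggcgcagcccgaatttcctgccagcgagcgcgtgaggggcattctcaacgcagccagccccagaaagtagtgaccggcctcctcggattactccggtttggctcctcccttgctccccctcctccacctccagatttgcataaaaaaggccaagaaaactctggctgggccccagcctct
Axin2: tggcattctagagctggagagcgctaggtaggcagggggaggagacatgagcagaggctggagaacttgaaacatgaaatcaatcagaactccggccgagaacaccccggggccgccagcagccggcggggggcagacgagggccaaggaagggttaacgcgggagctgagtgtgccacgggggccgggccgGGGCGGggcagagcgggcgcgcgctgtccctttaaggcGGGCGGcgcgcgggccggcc

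Both genes shown that rose had no GC box in this window, and among the 4 shown that fell Wnt9a had 5, Dkk2 and Axin2 2 each, and Sfrp2 none. Ctnnb1, which also rose in both genotypes and is not shown because it has 2 promoters, had 3 and 2 GC boxes in them. No contrast between genes that rose and genes that fell is drawn from these windows. Of all 32851 promoters in the table, 32.7% held a GC box in the same window on either strand, as did 73.8% of the 42 promoters of the 32 genes. Those 42 had a median GC content of 68.6% and a median of 22 CG dinucleotides, against 52.4% and 6 over all promoters. The shares were not adjusted for this base composition. CG dinucleotides numbered 9 in Wnt16, 22 in Rspo1, 48 in Wnt9a, 7 in Dkk2, 16 in Sfrp2 and 24 in Axin2, against a median of 6 over all promoters. The TCF/LEF heptamers CTTTGAT and CTTTGAA, searched on both strands, were in none of the 6, Axin2 included, and in 7.48% of all promoters. The TATAAA motif was in Dkk2 among the 6, and in 12.4% of all promoters. These matches describe letters in the window and are not binding sites.

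Among the ligands, Wnt5a and Wnt9a, the most abundant per kilobase in wild-type solvent cultures, were called lower with FK228 in both genotypes. Wnt16, near the limit of detection in solvent, was called higher in both, but it was tested only through its FK228 libraries. Wnt5a (chr14:28504750-28527448 on GRCm38), a ligand known for signalling without beta-catenin and for its part in cochlear extension in the mouse, had 60.3, 62.5, 68.2 and 58.1 CPM in heterozygous FK228 libraries 2 to 5, and 192, 186, 190 and 188 CPM in heterozygous solvent libraries 1, 2, 4 and 5. Wild-type FK228 libraries 1, 2, 4 and 7 had 53.4, 76.7, 65.8 and 63.2 CPM, and wild-type solvent libraries 1 to 4 had 186, 179, 198 and 179 CPM; values below keep this order of libraries. Every FK228 library stood far below every solvent library of its genotype. The level was 3.03-fold lower with FK228 in heterozygous cultures (log2 fold change -1.60 ± 0.09, SE; edgeR adjusted p = 2.72e-10) and 2.87-fold lower in wild type (-1.52 ± 0.09; adjusted p = 5.72e-10). Wnt5a made up 30.5% of the summed ligand level per kilobase in heterozygous FK228 cultures against 48.4% in solvent, and 30.3% in wild-type FK228 cultures against 47.1% in solvent. That sum, over the 17 ligands, was 26.2 ± 2.68 CPM per kb in heterozygous FK228 against 49.96 ± 1.70 in heterozygous solvent cultures, and 27.3 ± 1.41 CPM per kb in wild-type FK228 against 50.4 ± 2.87 in wild-type solvent cultures (SD, n = 4 each).

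Wnt9a (chr11:59306928-59333552), whose promoter stands among those above, is a ligand that can signal through beta-catenin. Its level was 32.3, 26.7, 25.9 and 22.1 CPM in heterozygous FK228 libraries, against 48.9, 48.3, 47.9 and 41.9 CPM in heterozygous solvent libraries. Wild-type values were 21.2, 23.6, 24.2 and 24.0 CPM with FK228, against 47.0, 43.8, 47.5 and 40.6 CPM in solvent. The groups did not overlap in either genotype. Wnt9a fell by 0.81 ± 0.10 on the log2 scale in heterozygous (edgeR adjusted p = 3.75e-06) and by 0.95 ± 0.10 in wild-type cultures (adjusted p = 5.92e-07).

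Wnt16 (chr6:22288227-22298522), a ligand best known from bone and joints, was counted at 31, 33, 32 and 25 reads in heterozygous FK228 libraries, against 7, 5, 1 and 0 reads in heterozygous solvent libraries. Wild-type FK228 libraries held 66, 46, 45 and 80 reads, against 7, 6, 0 and 1 in wild-type solvent libraries. All FK228 libraries were higher than all solvent libraries. The fold change was 9.62 in heterozygous cultures (log2 3.27 ± 0.59; edgeR adjusted p = 0.000171) and 18.1 in wild type (log2 4.18 ± 0.57; adjusted p = 8.97e-06). The level stayed low, at 2.19 ± 0.165 CPM in heterozygous FK228 against 0.221 ± 0.228 CPM in heterozygous solvent cultures, and 3.44 ± 0.863 CPM in wild-type FK228 against 0.176 ± 0.172 CPM in wild-type solvent cultures (SD, n = 4 each). Wnt16 passed the filter through the FK228 libraries alone (8 of 8, against 0 of 8 solvent libraries), so a difference was built into its being tested.

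Wnt11 (chr7:98835112-98855195), known for signalling without beta-catenin during axis extension, had 2.19, 2.41, 1.49 and 1.89 CPM in heterozygous FK228 libraries and 0.559, 0.524, 0.404 and 1.23 CPM in heterozygous solvent libraries. Wild-type libraries held 1.59, 2.24, 1.81 and 2.15 CPM with FK228 and 2.17, 1.27, 1.96 and 1.55 CPM in solvent. The heterozygous solvent libraries stood below the other 3 groups, which overlapped. Wnt11 rose 2.92-fold in heterozygous cultures (log2 1.54 ± 0.34; edgeR adjusted p = 0.000973), and in wild type the log2 change was 0.16 ± 0.30 (adjusted p = 0.688). The interaction was 1.39 ± 0.45 (adjusted p = 0.622), and the heterozygous call was lost with spike-in factors.

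Wnt7b, which was called lower in heterozygous cultures, averaged 13.5 ± 3.95 CPM with FK228 and 19.7 ± 3.89 CPM in solvent (log2 -0.54 ± 0.21; edgeR adjusted p = 0.0383), with overlapping libraries. This call was lost on leaving out any 1 of 5 libraries (Het FK228 3 or 5, Het solvent 2, 4 or 5; adjusted p 0.0663 to 0.128). In wild type Wnt7b averaged 15.8 ± 1.84 CPM with FK228 and 21.3 ± 4.70 CPM in solvent (adjusted p = 0.0907). The remaining 7 ligands tested, Wnt2, Wnt2b, Wnt3, Wnt4, Wnt5b, Wnt6 and Wnt7a, passed the test in neither genotype (Wnt2 had passed the filter through solvent libraries alone), with log2 changes from -1.07 for Wnt2 to 0.19 for Wnt6 in heterozygous and from -0.89 for Wnt2 to 0.46 for Wnt2b in wild-type cultures.

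The 5 ligands that missed the filter, and Rspo4, were counted at most 18 times in any library. Wnt3a, a classical activator of beta-catenin, had 3, 3, 4 and 3 reads in heterozygous FK228 libraries against 0, 0, 0 and 1 in solvent, and 16, 4, 15 and 2 reads in wild-type FK228 libraries against 0 in each of the 4 solvent libraries. Wnt9b had 8, 2, 5 and 0 reads in heterozygous FK228 libraries against 0, 2, 0 and 0 in solvent, and 5, 2, 6 and 11 in wild-type FK228 libraries against 0 in each solvent library. Wnt1 had 12, 1, 3 and 2 reads against 1, 1, 0 and 1 in heterozygous cultures, and 13, 1, 3 and 8 against 0, 1, 0 and 0 in wild type. In wild type each FK228 library exceeded the solvent libraries for Wnt3a and Wnt9b. Rspo4 had at most 11 reads in any library, Wnt10b at most 9 and Wnt10a at most 18. With no filter, edgeR called 1 of the 6 higher in heterozygous cultures (Wnt3a, adjusted p = 0.0326) and 4 in wild type (Wnt3a, Wnt9b, Wnt1 and Rspo4, adjusted p 0.000182 to 0.0445). The share of all genes called in that fit is not set beside them, so these counts are values and not results about the 6.

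**Figure D2:**
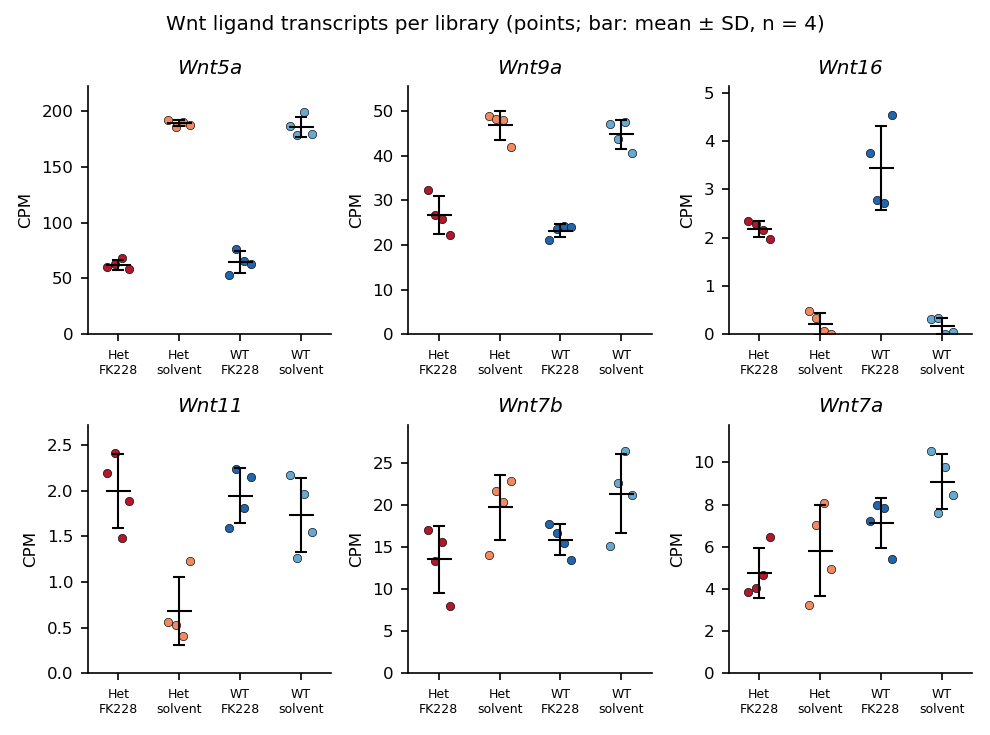
CPM of 6 Wnt ligands in each library (points), with the mean and SD of each group of 4 (bars); groups run from heterozygous FK228 and solvent to wild-type FK228 and solvent. Wnt5a and Wnt9a were lower in every FK228 library, Wnt16 was higher in every FK228 library, and Wnt11 was lowest in heterozygous solvent libraries.

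Of the 12 receptors, 0 were called higher and 4 lower in heterozygous cultures, where 23.8% of all genes were called higher and 24.7% lower. In wild type 3 were called higher and 1 lower, where 23.7% of all genes were called higher and 25.3% lower. The interaction test called 0 of the 12, so these counts show no difference between the genotypes. Fzd6 (chr15:39006034-39038188), which acts with Fzd3 in the planar polarity of hair cells in the mouse, was the one called in both. It had 20.8, 17.6, 24.3 and 20.5 CPM in heterozygous FK228 libraries and 28.2, 34.0, 38.5 and 31.6 CPM in heterozygous solvent libraries. Wild-type FK228 libraries had 17.9, 20.2, 16.3 and 17.2 CPM, and wild-type solvent libraries 31.6, 31.3, 33.1 and 34.0 CPM. No FK228 library reached a solvent library. The fall was 1.59-fold in heterozygous (log2 -0.67 ± 0.11; edgeR adjusted p = 7.59e-05) and 1.82-fold in wild-type cultures (log2 -0.86 ± 0.11; adjusted p = 5.03e-06).

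Its partner Fzd3 had 24.95, 29.2, 23.9 and 22.7 CPM in heterozygous FK228 libraries and 22.9, 22.3, 21.1 and 26.5 CPM in solvent. Wild-type levels were 21.4, 24.4, 22.9 and 23.2 CPM with FK228 and 20.2, 15.9, 20.5 and 18.8 CPM in solvent. The wild-type groups did not overlap, while the heterozygous ones did. The log2 change was 0.12 ± 0.11 in heterozygous (edgeR adjusted p = 0.389) and 0.28 ± 0.11 in wild-type cultures (adjusted p = 0.0370), and the wild-type call was lost on leaving out any 1 of 5 libraries (WT FK228 2, 4 or 7, WT solvent 2 or 4; adjusted p 0.0639 to 0.129).

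Fzd5 (chr1:64730558-64737751), a receptor that can act through beta-catenin, had 4.08, 2.83, 6.89 and 4.49 CPM in heterozygous FK228 libraries and 3.84, 4.58, 2.90 and 3.77 CPM in heterozygous solvent libraries. Wild-type libraries had 4.71, 5.68, 6.40 and 4.64 CPM with FK228 and 2.76, 3.19, 2.30 and 2.93 CPM in solvent. In wild type the FK228 libraries were all higher, whereas in heterozygous cultures the groups overlapped. The rise in wild type was 1.91-fold (log2 0.94 ± 0.24; edgeR adjusted p = 0.00306), and the heterozygous log2 change was 0.28 ± 0.24 (adjusted p = 0.354). The co-receptor Lrp6 had 33.3, 35.3, 29.3 and 29.0 CPM in heterozygous FK228 libraries and 29.3, 28.0, 28.7 and 31.4 CPM in solvent, and 35.4, 43.6, 38.6 and 35.8 CPM in wild-type FK228 libraries against 28.2, 27.0, 33.4 and 36.1 CPM in solvent. Groups overlapped in both genotypes. In wild type Lrp6 rose by 0.30 ± 0.10 on the log2 scale (adjusted p = 0.0240), a call that was lost without WT FK228 2, WT solvent 1 or WT solvent 2 (adjusted p 0.0733 to 0.0864). Lrp5 averaged 9.47 ± 0.489 CPM in heterozygous FK228 cultures and 6.49 ± 2.21 CPM in heterozygous solvent cultures (adjusted p = 0.0685).

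Of the other Frizzled receptors, Fzd10, Fzd1 and Fzd2 fell in heterozygous cultures. Fzd10 (chr5:128600844-128604093) had 23.7, 21.2, 16.7 and 24.4 CPM in heterozygous FK228 libraries and 33.6, 22.3, 40.5 and 43.7 CPM in solvent, so that 1 solvent library lay among the FK228 ones. Wild-type libraries had 29.1, 31.4, 31.5 and 30.7 CPM with FK228 and 47.5, 28.3, 29.4 and 35.6 CPM in solvent. Its log2 change was -0.70 ± 0.19 in heterozygous (edgeR adjusted p = 0.00442) and -0.20 ± 0.18 in wild-type cultures (adjusted p = 0.383).

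Fzd1 had 3.70, 4.07, 5.47 and 5.51 CPM in heterozygous FK228 libraries and 5.87, 5.76, 8.62 and 8.15 CPM in solvent, with no overlap. In wild type it had 4.48, 5.32, 4.59 and 3.74 CPM with FK228 and 5.24, 5.50, 7.29 and 6.67 CPM in solvent. It fell by 0.60 ± 0.20 on the log2 scale in heterozygous cultures (edgeR adjusted p = 0.0171), and the wild-type change was -0.44 ± 0.19 (adjusted p = 0.0646). The call was lost without Het FK228 2 or 3 or Het solvent 4 or 5 (adjusted p 0.0532 to 0.0617). Fzd2 had 10.4, 8.96, 7.16 and 6.92 CPM in heterozygous FK228 libraries and 8.39, 10.6, 12.3 and 12.7 CPM in solvent, with overlap, and its call (log2 -0.40 ± 0.16; adjusted p = 0.0442) was lost on leaving out any 1 of the 16 libraries other than Het FK228 2, Het solvent 1 and WT solvent 1 and 2 (12 libraries; adjusted p 0.0509 to 0.133). In wild type Fzd2 had 12.9, 12.0, 11.1 and 11.7 CPM with FK228 and 14.5, 10.7, 13.1 and 12.5 CPM in solvent (adjusted p = 0.643). Fzd4, Fzd7, Fzd8, Fzd9 and Lrp5 were called in neither genotype.

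**Figure D3:**
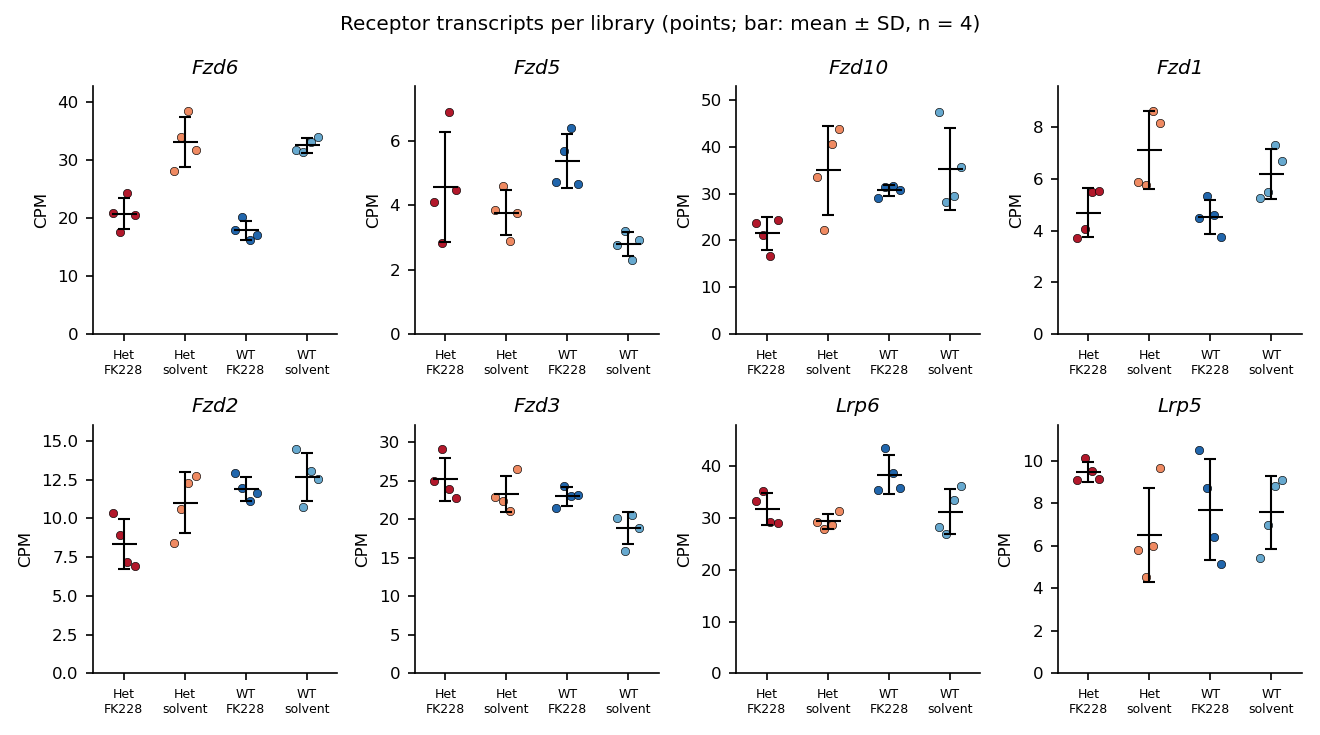
CPM of 8 receptor transcripts in each library (points), with group means and SDs of 4 libraries (bars), ordered from heterozygous FK228 to wild-type solvent. Fzd6 separated the treatments in both genotypes, and the other panels show overlap in at least 1 genotype.

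The secreted inhibitors moved in both directions. Sfrp4 (chr13:19623104-19632994), a secreted Frizzled-related protein that binds Wnt ligands, had 4.31, 2.21, 4.53 and 2.20 CPM in heterozygous FK228 libraries and 38.2, 75.4, 30.4 and 38.2 CPM in heterozygous solvent libraries. Wild-type FK228 libraries had 1.99, 4.23, 4.83 and 1.75 CPM, and wild-type solvent libraries 37.02, 29.4, 31.1 and 28.2 CPM. The highest FK228 library of either genotype held less than the lowest solvent library by a wide margin. Sfrp4 fell 13.7-fold in heterozygous (log2 -3.77 ± 0.33; edgeR adjusted p = 5.37e-08) and 9.86-fold in wild-type cultures (log2 -3.30 ± 0.33; adjusted p = 2.22e-07).

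Dkk2 (chr3:132085292-132180304), a Dickkopf protein that binds Lrp5 and Lrp6, had 3.02, 11.8, 11.01 and 5.19 CPM in heterozygous FK228 libraries and 12.2, 20.2, 29.2 and 22.6 CPM in heterozygous solvent libraries. In wild-type cultures Dkk2 had 7.32, 11.5, 8.03 and 6.11 CPM with FK228 and 25.1, 20.4, 18.3 and 22.4 CPM in solvent. The groups did not overlap, though heterozygous solvent library 1 came near the FK228 range. The fall was 2.70-fold in heterozygous (log2 -1.43 ± 0.32; edgeR adjusted p = 0.00125) and 2.62-fold in wild-type cultures (log2 -1.39 ± 0.32; adjusted p = 0.00136).

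Sfrp2 had 20.04, 26.9, 23.4 and 23.2 CPM in heterozygous FK228 libraries and 30.1, 26.5, 38.2 and 32.8 CPM in heterozygous solvent libraries. Wild-type libraries had 24.1, 28.0, 19.9 and 31.2 CPM with FK228 and 37.7, 26.4, 34.6 and 37.8 CPM in solvent. Groups overlapped in both genotypes. It fell by 0.45 ± 0.15 on the log2 scale in heterozygous (edgeR adjusted p = 0.0196) and by 0.40 ± 0.15 in wild-type cultures (adjusted p = 0.0307). The heterozygous call was lost without Het FK228 2 or Het solvent 4 (adjusted p 0.0648 and 0.0744), and the wild-type call without WT FK228 1 or 4 or WT solvent 1, 3 or 4 (adjusted p 0.0574 to 0.113).

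Sfrp1 (chr8:23411502-23449632), the most abundant of the Sfrp transcripts, went the other way. It had 750, 1153, 1068 and 933 CPM in heterozygous FK228 libraries and 746, 789, 787 and 818 CPM in heterozygous solvent libraries, against 621, 679, 573 and 833 CPM in wild-type FK228 libraries and 506, 580, 514 and 604 CPM in wild-type solvent libraries. Treatment groups overlapped in each genotype. The log2 change was 0.31 ± 0.12 in heterozygous (edgeR adjusted p = 0.0360) and 0.30 ± 0.12 in wild-type cultures (adjusted p = 0.0480). Leaving out any 1 of 5 heterozygous libraries (Het FK228 3 or 4, Het solvent 1, 2 or 4; adjusted p 0.0593 to 0.145) or, for wild type, any of 11 libraries (all but Het FK228 2 and 3, WT FK228 1 and 4 and WT solvent 4; adjusted p 0.0516 to 0.215) lost the call, and with spike-in factors the heterozygous change was -0.41. Dkk3 and Sfrp5 were called in neither genotype: Dkk3 averaged 604 ± 58.7 CPM in heterozygous FK228 and 690 ± 125 CPM in heterozygous solvent cultures, and 581 ± 25.7 CPM in wild-type FK228 and 652 ± 130 CPM in wild-type solvent cultures (SD, n = 4 each).

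Markers of other cell types moved with FK228 as well, and the numbers that rose or fell are numbers called. Of all genes, 23.8% were called higher and 24.7% lower in heterozygous cultures, and 23.7% and 25.3% in wild type. Numbers of markers near these shares are values and not results about a cell type. Mesenchyme markers summed to 1232 to 1544 CPM in heterozygous FK228 libraries and 2722 to 4077 CPM in heterozygous solvent libraries, and to 1463 to 1773 CPM in wild-type FK228 libraries and 2901 to 3641 CPM in wild-type solvent libraries. Of the 7, 6 fell and Col1a1 rose in both genotypes. All 6 macrophage markers fell in both genotypes, with sums of 22.6 to 32.6 CPM in heterozygous FK228 libraries against 252 to 374 CPM in solvent, and 36.0 to 51.3 CPM in wild-type FK228 libraries against 351 to 439 CPM in solvent. Of 8 supporting cell markers, 6 fell in heterozygous and 4 in wild-type cultures, with sums of 2101 to 2606 CPM in heterozygous FK228 libraries against 2726 to 3805 CPM in solvent, and 1977 to 2169 CPM in wild-type FK228 libraries against 2159 to 2955 CPM in solvent. Of 5 endothelial markers, 3 fell in each genotype, with sums of 96.2 to 130 CPM in heterozygous FK228 libraries against 153 to 178 CPM in solvent, and 75.4 to 112 CPM in wild-type FK228 libraries against 138 to 195 CPM in solvent. Of 5 Schwann cell markers tested, 4 fell in heterozygous and 3 in wild-type cultures; all 6 summed to 94.8 to 122 CPM in heterozygous FK228 libraries against 158 to 181 CPM in solvent, and to 102 to 118 CPM in wild-type FK228 libraries against 158 to 201 CPM in solvent. Summed neuron markers ran from 167 to 273 CPM in heterozygous FK228 libraries against 93.1 to 168 CPM in solvent, and from 298 to 597 CPM in wild-type FK228 libraries against 239 to 441 CPM in solvent, with 3 of 6 higher and 0 lower in heterozygous and 2 higher and 1 lower in wild-type cultures. Summed hair cell markers ran from 360 to 428 CPM in heterozygous FK228 libraries against 261 to 373 CPM in solvent, and from 457 to 503 CPM in wild-type FK228 libraries against 352 to 456 CPM in solvent, with 1 of 7 higher and 1 lower in heterozygous and 1 higher and 3 lower in wild-type cultures. The median log2 change of the 7 was -0.69 in heterozygous and -0.40 in wild-type cultures. One of them, Slc17a8, passed the filter through solvent libraries alone (7 of 8, against 1 of 8 FK228 libraries). Marker levels moved with the fall of Wnt5a, Wnt9a, Fzd6, Sfrp4 and Dkk2 and the rise of Wnt16, and the part of the markers in these changes was not tested.

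R-spondins bind Lgr receptors and remove the ubiquitin ligases Znrf3 and Rnf43, which otherwise clear Frizzled receptors from the cell surface. Znrf3 (chr11:5276324-5444847), itself a target gene of the pathway, had 707, 764, 634 and 786 CPM in heterozygous FK228 libraries and 441, 358, 577 and 437 CPM in heterozygous solvent libraries. Wild-type libraries had 843, 824, 855 and 953 CPM with FK228 and 576, 478, 479 and 484 CPM in solvent. Every FK228 library was above the solvent libraries. The rise was 1.59-fold in heterozygous (log2 0.67 ± 0.11; edgeR adjusted p = 7.79e-05) and 1.72-fold in wild-type cultures (log2 0.79 ± 0.11; adjusted p = 1.59e-05), while with spike-in factors the heterozygous change was -0.03. Its relative Rnf43 averaged 14.2 ± 0.869 CPM in heterozygous FK228 and 18.1 ± 3.72 CPM in heterozygous solvent cultures (adjusted p = 0.0501), and 16.4 ± 2.25 CPM in wild-type FK228 and 18.6 ± 1.95 CPM in wild-type solvent cultures (adjusted p = 0.273).

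Rspo3 (chr10:29452416-29535867) had the smallest p of the 42 members in the interaction test. Heterozygous FK228 libraries had 14.1, 14.1, 17.6 and 16.6 CPM and heterozygous solvent libraries 15.03, 11.9, 13.1 and 13.1 CPM, which overlapped. Wild-type FK228 libraries had 6.47, 6.28, 9.96 and 6.68 CPM and wild-type solvent libraries 18.6, 11.6, 11.6 and 10.3 CPM, which did not. The log2 change was 0.23 ± 0.18 in heterozygous (edgeR adjusted p = 0.308) and -0.83 ± 0.18 in wild-type cultures (adjusted p = 0.00115), a 1.78-fold fall. The interaction was 1.06 ± 0.26 (adjusted p = 0.386), and by DESeq2 1.05 ± 0.27 (adjusted p = 0.0497; 0.0497 to 0.991 over the main fit and the alternatives). Melanocyte markers moved alongside: their sum ran from 119 to 160 CPM in heterozygous FK228 libraries and 61.3 to 189 CPM in heterozygous solvent libraries, and from 9.96 to 83.8 CPM in wild-type FK228 libraries and 91.0 to 177 CPM in wild-type solvent libraries. Of the 4 markers, 0 were called lower in heterozygous and 3 in wild-type cultures, where 24.7% and 25.3% of all genes were. The part of these markers in the Rspo3 difference was not tested.

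Rspo1 (chr4:124986430-125009099), whose promoter is shown above, had 1.81, 0.414, 1.76 and 1.10 CPM in heterozygous FK228 libraries and 0.419, 0.327, 0.539 and 0.753 CPM in heterozygous solvent libraries. In wild type it had 1.31, 1.57, 1.27 and 0.962 CPM with FK228 and 0.678, 0.330, 0.673 and 0.287 CPM in solvent. Wild-type groups did not overlap, and 1 heterozygous FK228 library fell within the solvent range. The rise was 2.47-fold in heterozygous (log2 1.31 ± 0.45; edgeR adjusted p = 0.0225) and 2.54-fold in wild-type cultures (log2 1.35 ± 0.43; adjusted p = 0.0149). Rspo1 also passed the filter through the FK228 libraries alone, with 7 of 8 past its cutoff of 0.627 CPM against 3 of 8 solvent libraries, where 4 were needed. The heterozygous call was lost without Het FK228 2 or 4 or Het solvent 1 or 2 (adjusted p 0.0555 to 0.0786). Rspo2, at 25.3 ± 4.84 CPM in heterozygous FK228 and 30.4 ± 5.82 CPM in heterozygous solvent cultures, was called in neither genotype.

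Within the cell, Ctnnb1, which encodes beta-catenin, rose slightly and its reporter gene Axin2 fell slightly. Axin2 (chr11:108920349-108950783), a scaffold of the destruction complex and a common readout of beta-catenin activity, had 87.4, 106, 112 and 121 CPM in heterozygous FK228 libraries and 138, 102, 153 and 140 CPM in heterozygous solvent libraries. Wild-type FK228 libraries had 104, 113, 104 and 99.9 CPM and wild-type solvent libraries 160, 122, 129 and 128 CPM. Wild-type groups did not overlap, while heterozygous solvent library 2 lay within the FK228 range. Axin2 fell by 0.32 ± 0.12 on the log2 scale in heterozygous (edgeR adjusted p = 0.0334) and by 0.36 ± 0.12 in wild-type cultures (adjusted p = 0.0181). Leaving out Het FK228 2 or 3 or Het solvent 1, 4 or 5 lost the first call (adjusted p 0.0637 to 0.122), and leaving out WT solvent 1 the second (log2 -0.26; adjusted p = 0.0770).

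Ctnnb1 (chr9:120929216-120960507) had 126, 131, 127 and 130 CPM in heterozygous FK228 libraries and 102, 89.8, 106 and 94.1 CPM in heterozygous solvent libraries, against 124, 113, 104 and 116 CPM in wild-type FK228 libraries and 103, 90.1, 98.0 and 101 CPM in wild-type solvent libraries. Neither pair of groups overlapped. The log2 change was 0.39 ± 0.07 in heterozygous (edgeR adjusted p = 0.000195) and 0.22 ± 0.07 in wild-type cultures (adjusted p = 0.0150), the second lost without WT FK228 1 or WT solvent 2 (adjusted p 0.0585 and 0.0575). With spike-in factors the heterozygous change was -0.33.

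Lef1 (chr3:131110471-131224356), a TCF family factor and target gene, had 22.8, 25.02, 25.3 and 23.8 CPM in heterozygous FK228 libraries and 35.4, 33.8, 37.2 and 34.0 CPM in heterozygous solvent libraries. In wild type it had 29.4, 32.6, 32.1 and 29.4 CPM with FK228 and 41.0, 29.2, 33.2 and 37.5 CPM in solvent. Heterozygous groups were apart and wild-type groups overlapped. Lef1 fell 1.45-fold in heterozygous cultures (log2 -0.53 ± 0.10; edgeR adjusted p = 0.000189), and the wild-type change was -0.19 ± 0.10 (adjusted p = 0.107; -0.27 and adjusted p = 0.0212 without WT solvent 2). The interaction was -0.34 ± 0.14 (adjusted p = 0.790).

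Tcf7, which encodes TCF1, had 7.11, 5.86, 8.04 and 7.48 CPM in heterozygous FK228 libraries and 6.15, 7.59, 6.33 and 7.33 CPM in solvent. Wild-type cultures had 8.34, 9.25, 5.74 and 8.43 CPM with FK228 and 6.01, 4.51, 5.104 and 6.26 CPM in solvent, 1 FK228 library lying within the solvent range. It rose by 0.54 ± 0.17 on the log2 scale in wild type (edgeR adjusted p = 0.0138), and the heterozygous change was 0.05 ± 0.17 (adjusted p = 0.813). Axin1, Tcf7l1 and Tcf7l2 were called in neither genotype, with log2 changes from -0.14 to 0.09 in heterozygous and from 0.01 to 0.16 in wild-type cultures.

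**Figure D4:**
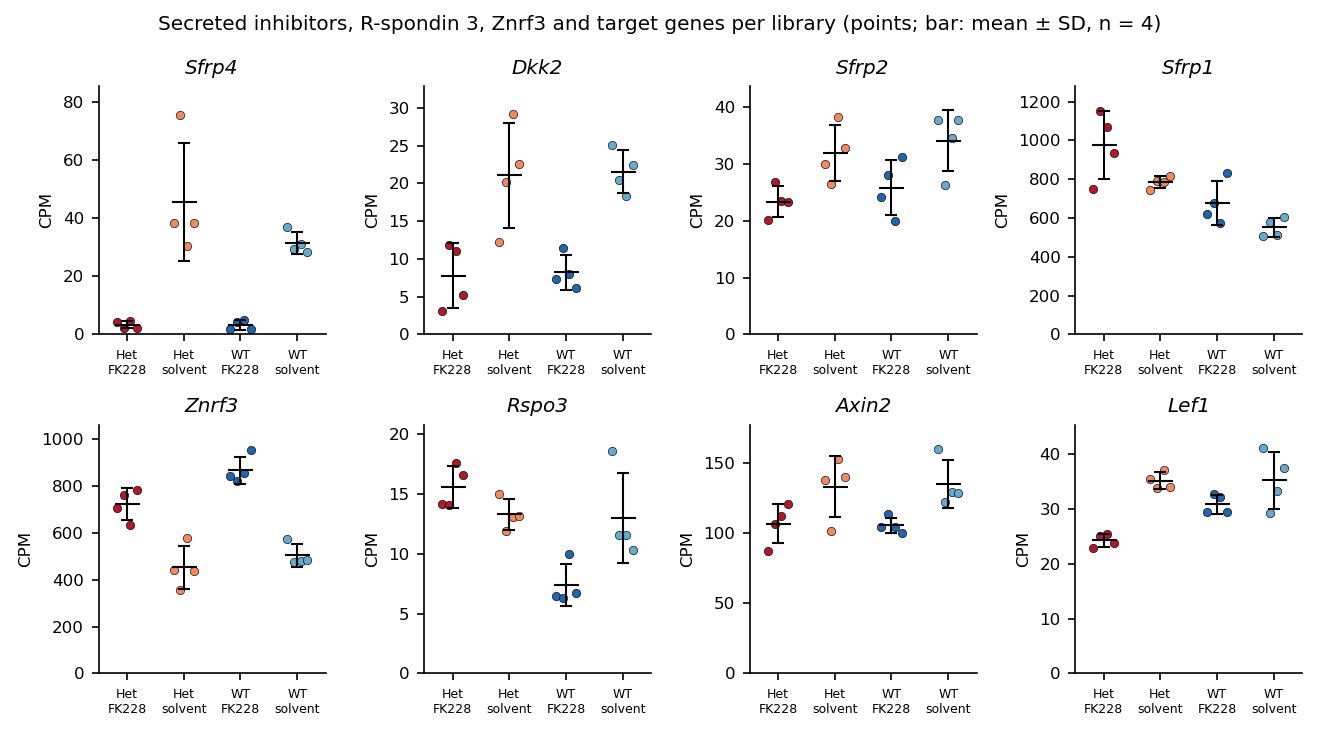
CPM of 4 secreted inhibitors, Znrf3, Rspo3, Axin2 and Lef1 in each library (points), with group means and SDs of 4 libraries (bars), ordered from heterozygous FK228 to wild-type solvent. Sfrp4 and Dkk2 were lower and Znrf3 higher in FK228 libraries of both genotypes, and Rspo3 was lowest in wild-type FK228 libraries.

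The second question was what the Rest(+/deltaExon4) genotype changed. Heterozygous against wild-type cultures, 2 of the 42 members were called in solvent, 1 higher (Sfrp1) and 1 lower (Wnt11), while 2.03% of all genes were called (1.20% higher, 0.823% lower). With FK228, 2 were called, both higher (Rspo3 and Sfrp1), while 2.14% of all genes were called (1.21% higher, 0.928% lower). Sfrp1 averaged 785 ± 29.6 CPM in heterozygous solvent cultures against 551 ± 48.5 CPM in wild-type ones, with no overlap, a 1.42-fold difference (log2 0.51 ± 0.12; edgeR adjusted p = 0.0292). With FK228 it averaged 976 ± 176 CPM in heterozygous cultures against 676 ± 113 CPM in wild type, 1.44-fold (log2 0.53 ± 0.12; adjusted p = 0.0237), with 1 heterozygous library inside the wild-type range. The solvent call was lost on leaving out any 1 of 6 libraries (Het solvent 2, 4 or 5, WT solvent 1, 2 or 3; adjusted p 0.0569 to 0.102), the FK228 call on leaving out any 1 of 5 (Het FK228 3 or 4, WT FK228 1, 2 or 4; adjusted p 0.0679 to 0.0881), and with spike-in factors the difference with FK228 was -0.21.

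Wnt11 averaged 0.680 ± 0.374 CPM in heterozygous solvent cultures against 1.74 ± 0.406 CPM in wild-type ones (log2 -1.35 ± 0.33; edgeR adjusted p = 0.0396), and this call was lost on leaving out any of 10 libraries (all but the 4 Het FK228 ones, Het solvent 5 and WT solvent 2; adjusted p 0.0503 to 0.123). Rspo3 averaged 15.6 ± 1.77 CPM in heterozygous FK228 cultures against 7.35 ± 1.75 CPM in wild-type ones, a 2.12-fold difference with no overlap (log2 1.09 ± 0.19; adjusted p = 0.00338), which was not called with spike-in factors. Melanocyte markers, whose sums in the FK228 groups are given above, had median log2 differences of 1.25 with FK228 and 0.17 in solvent between heterozygous and wild-type cultures, with 0 of 4 called in either. Tcf7l2 missed the threshold in both: it averaged 767 ± 161 CPM in heterozygous FK228 cultures against 1093 ± 91.8 CPM in wild-type ones (log2 -0.51 ± 0.13; adjusted p = 0.0538), and 723 ± 141 CPM in heterozygous solvent cultures against 977 ± 85.3 CPM in wild-type ones (log2 -0.43 ± 0.13; adjusted p = 0.130). Neuron markers summed to 167 to 273 CPM in heterozygous against 298 to 597 CPM in wild-type FK228 libraries, and to 93.1 to 168 CPM in heterozygous against 239 to 441 CPM in wild-type solvent libraries. Of the 6, 3 were called lower with FK228 and 5 in solvent, and the part of neuron or melanocyte markers in these differences was not tested.

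Around the 48 genes, 90 other genes of the pathway were listed in 7 groups, of which 87 were tested. FK228 raised 17 and lowered 23 of them in heterozygous cultures, and raised 22 and lowered 22 in wild type, shares again close to the 48.4% and 49.0% of all genes called, so the counts for each group below are values and not results about it. The group of other secreted inhibitors also held membrane proteins such as Kremen2. Of its 10 genes tested, 4 were called higher and 3 lower in each genotype (median log2 fold change -0.05 in heterozygous and -0.15 in wild-type cultures). Dkkl1, a Dickkopf-like protein, averaged 5.35 ± 0.674 CPM in heterozygous FK228 against 0.578 ± 0.168 CPM in heterozygous solvent cultures (edgeR adjusted p = 4.56e-08), and 4.35 ± 0.620 CPM in wild-type FK228 against 0.966 ± 0.354 CPM in wild-type solvent cultures (adjusted p = 1.62e-06). Kremen2, a Dickkopf receptor, ran from 1.34 to 1.59 CPM in heterozygous FK228 against 0 to 0.196 CPM in heterozygous solvent libraries, and from 0.965 to 1.45 CPM in wild-type FK228 libraries against 0 counts in each wild-type solvent library. Its FK228 mean was 7.035-fold the mean level of 3 counts per library in heterozygous and 7.61-fold in wild-type cultures. Solvent means lay below that level, so the rises over solvent were at least as large. Notum, an enzyme that removes the Wnt lipid, fell by 1.48 ± 0.25 on the log2 scale in heterozygous (adjusted p = 8.87e-05) and by 1.46 ± 0.24 in wild-type cultures (adjusted p = 6.04e-05).

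Of 11 other receptors and co-receptors, 2 were called higher and 3 lower in each genotype. Ndp, the Norrin ligand of Fzd4 known for cochlear vessels in the mouse, averaged 1.61 ± 0.540 CPM in heterozygous FK228 against 11.6 ± 2.27 CPM in heterozygous solvent cultures, and 1.55 ± 0.683 CPM in wild-type FK228 against 11.4 ± 1.70 CPM in wild-type solvent cultures. Endothelial markers had median log2 changes of -0.62 in heterozygous and -0.59 in wild-type cultures, and macrophage markers of -3.45 and -3.00. The part of either in the fall of Ndp was not tested. Lgr5 averaged 69.2 ± 4.54 CPM in heterozygous FK228 against 121 ± 15.8 CPM in solvent, and 60.9 ± 16.02 CPM in wild-type FK228 against 100.4 ± 15.98 CPM in solvent. The heparan sulfate proteoglycan Gpc3 rose in both. In the group for Wnt secretion, Wls, the carrier that brings Wnt proteins to the cell surface, fell by 0.38 ± 0.10 on the log2 scale in heterozygous (edgeR adjusted p = 0.00283) and by 0.37 ± 0.10 in wild-type cultures (adjusted p = 0.00340), and Porcn, which attaches the lipid, was not called.

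The planar cell polarity group had 5 higher and 1 lower of 18 in heterozygous cultures (23.8% and 24.7% of all genes), and 6 higher and 2 lower in wild type (23.7% and 25.3% of all genes), so the number called higher was near the share of all genes. Median log2 fold changes were 0.18 in heterozygous and 0.03 in wild-type cultures. Daam1, a formin downstream of Dishevelled, averaged 116 ± 2.83 CPM in heterozygous FK228 against 72.8 ± 4.87 CPM in heterozygous solvent cultures, and 104 ± 8.96 CPM in wild-type FK228 against 67.1 ± 2.51 CPM in wild-type solvent cultures. Dvl2, a Dishevelled protein, and Celsr3, a cadherin of axon guidance, also rose in both. Destruction complex genes had 2 higher and 3 lower of 19 in heterozygous, and 5 higher and 3 lower in wild-type cultures. Ppp2r1a, a phosphatase scaffold, fell by 0.49 ± 0.07 in heterozygous (log2; edgeR adjusted p = 1.28e-05) and 0.54 ± 0.07 in wild-type cultures (adjusted p = 4.52e-06). Gsk3b, the kinase that marks beta-catenin for degradation, and Frat1, which binds it, rose in wild type (log2 0.31 ± 0.07 and 0.42 ± 0.11) and were not called in heterozygous cultures.

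Of 14 nuclear cofactors, 1 was called higher and 7 lower in heterozygous cultures, where 24.7% of all genes were called lower, and 2 higher and 6 lower in wild type, where 25.3% were. Their median log2 fold change was -0.33 in heterozygous and -0.35 in wild-type cultures, against 0.00 and -0.01 over all genes, and no test of the group was made. Crebbp, a histone acetyltransferase, averaged 198 ± 11.6 CPM in heterozygous FK228 against 379 ± 15.02 CPM in heterozygous solvent cultures, and 206 ± 11.3 CPM in wild-type FK228 against 373 ± 14.6 CPM in wild-type solvent cultures. Pygo1, a beta-catenin cofactor, and Ctbp2, a corepressor, also fell in both genotypes. Common target genes had 3 higher and 7 lower of 16 tested in heterozygous and 3 higher and 6 lower in wild-type cultures. Myc averaged 19.5 ± 3.53 CPM in heterozygous FK228 against 49.7 ± 5.73 CPM in solvent, and 15.7 ± 2.62 CPM in wild-type FK228 against 49.5 ± 2.45 CPM in solvent. Ccnd1, a cyclin, and Wisp1, a secreted matrix protein, fell in both as well, and Nkd1, Sp8 and Ascl2 were called higher in both. Of these, Sp8 and Ascl2 passed the filter through the FK228 libraries alone, as did Kremen2 and Celsr3 above, so that a difference was built into their being tested.

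Between genotypes, 3 of these 87 genes were called in solvent, where 2.03% of all genes were called, and 1 with FK228, where 2.14% were, so neither count is a result about the pathway. Lgr4, an R-spondin receptor, had 414 ± 40.5 CPM in heterozygous cultures against 269 ± 19.9 CPM in wild type, and Vangl1, a planar polarity protein, had 121 ± 12.8 CPM in heterozygous cultures against 88.4 ± 10.01 CPM in wild type. Csnk1g1, a casein kinase, had 170 ± 19.4 CPM in heterozygous cultures against 251 ± 9.39 CPM in wild type. With FK228 the gene called was again Csnk1g1, which had 167 ± 13.1 CPM in heterozygous cultures against 232 ± 16.2 CPM in wild type (SD, n = 4 each). These 3 genes, and Nkd1, Sp8, Ascl2 and Col1a1 above, were chosen after their values were seen.

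**Figure D5:**
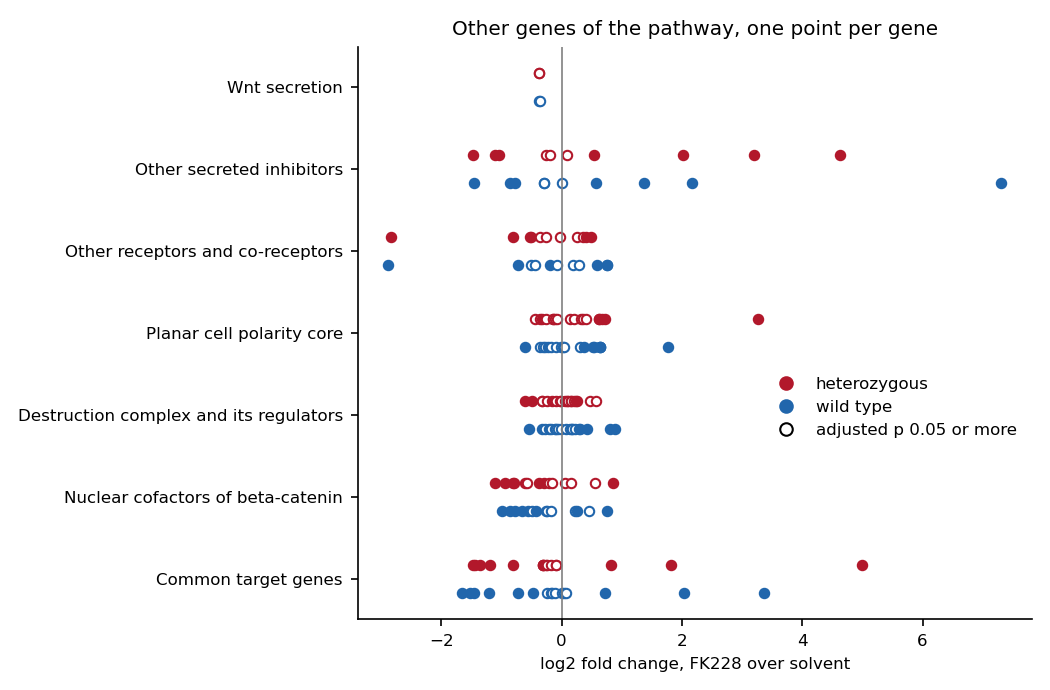
Log2 fold change of FK228 over solvent for the other pathway genes tested, 1 point per gene and group of genes, heterozygous cultures in red above wild type in blue; open points have an adjusted p of 0.05 or more. The farthest point in wild type is Kremen2, which had 0 counts in each wild-type solvent library, so that its place on the axis depends on the prior count of the model.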

How the data were processed

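Per the submitters' processing notes, reads were aligned with STAR 2.5.2a to GRCm38.p4, and DESeq2 was used. The authors deposited read counts per gene for each library, in 3 strand columns, and a table of normalized signal, counts divided by a size factor per library (0.801 to 1.41). Unstranded counts were used, since the second strand column held 50.1% to 50.2% of the stranded reads in the deposited counts. Reads over exons that 2 genes share, as in Wnt5a, Lef1, Fzd5 and Ctnnb1, are therefore not told apart by strand. Reads outside genes (11.2% to 22.2%), 92 ERCC rows and 22 transgene or synthetic rows stayed out of library sizes. The deposited signal times a factor per library gave whole reads for 100% of values, to within 0.001 reads. Those reads equalled the deposited counts for 100% of values. The count test on them called the same number of genes, 8394 in wild type, which repeats the main test and adds no support. Depth was 12361027 to 23611571 gene counts, and the number of columns that matched no sample was 0.

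Genes were kept with filterByExpr (minimum count 10, minimum total 15), leaving 17125. R 4.3.3 and edgeR 4.0.16 fitted a quasi-likelihood model with a mean per group over 16 libraries with TMM factors, with Benjamini-Hochberg adjustment of p. CPM uses TMM factors, errors of CPM are SDs of 4 libraries, and errors of log2 changes are model SEs. Levels per kb use the union of exons in GENCODE M21. Simulated counts with 200 changed genes among 16818, for FK228 in wild type, gave recovery of 56.0% at 1.5-fold, 70.0% at 2-fold, 93.9% at 4-fold and 100% at 8-fold, with 6.55% false calls. Far fewer genes changed in the simulation than the 8394 called in the data, so these rates need not hold for the data.

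Members and lists were chosen with earlier results of these data known. Values per library are given for Axin2 and Lef1, up to 4 called members per role with the smallest p in each FK228 contrast, and members called by genotype; outside the members, up to 3 genes per list with the smallest p in wild type. Alternatives were RLE or ERCC factors, other filters, only the groups compared, a replicate block, the sex mix as a covariate, DESeq2 1.42.0, limma 3.58.1 voom, leaving out libraries, and, chosen after seeing the data, the recovered reads. The recovered reads equal the deposited counts, so a call kept with them gains no support.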

Additional observations from a re-analysis of the deposited data

Results flagged for a closer look

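In 7 of 168 combinations of a member and a group, 1 library stood apart from the other 3 by more than Dixon's 95% critical value for 4 samples. Chance flags about 1 in 20. Rspo3 was at 9.96 CPM in wild-type FK228 library 4, against 6.28 to 6.68 CPM in the others of that group, and at 18.6 CPM in wild-type solvent library 1, against 10.3 to 11.6 CPM. Znrf3 was at 576 CPM in wild-type solvent library 1, against 478 to 484 CPM. That library had 11.6% of reads outside genes, among the 2 lowest shares. Wnt2b was at 2.10 CPM in wild-type FK228 library 1, against 0.962 to 1.15 CPM. Wnt3 was at 4.04 CPM in heterozygous solvent library 5, against 1.82 to 2.10 CPM, and at 3.51 CPM in wild-type FK228 library 7, against 1.69 to 1.99 CPM. Wnt9a was at 41.9 CPM in heterozygous solvent library 5, against 47.9 to 48.9 CPM.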

How the results depend on the processing

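The calls of Wnt5a, Wnt9a, Fzd6, Dkk2 and Sfrp4 were kept in both genotypes under every alternative that gave them a value. The calls of Wnt16 were kept likewise, but a difference was built into its being tested, so this adds no support. Spike-in factors changed most: 32 members were called for FK228 in heterozygous cultures (1 higher, 31 lower), 30 for genotype with FK228 and 13 for the interaction. Over all genes the median log2 change was then -0.72, -0.74 and -0.56 in these comparisons. Counts called under these factors are thus not results about the pathway. The counts of other pathway genes became 67, 75 and 20, and the heterozygous FK228 changes of Znrf3 (-0.0280), Ctnnb1 (-0.33) and Sfrp1 (-0.41) and the genotype difference of Sfrp1 with FK228 (-0.21) turned round. Calls also lost were Wnt11 and Rspo1 in heterozygous cultures, Fzd3, Lrp6, Tcf7, Ctnnb1 and Sfrp1 in wild type, and Rspo3 and Sfrp1 between genotypes. The cause of the spike-in shift was not tested.

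Genotype calls rested on few genes. In solvent the 2 member calls became 1 with the stricter filter, the sex mix as a covariate or only the groups compared, and 0 with limma voom or without the 2 libraries with the fewest reads outside genes. With FK228 they became 4 without those libraries and 5 with DESeq2, which also called 1 member in the interaction. Both of those libraries were solvent ones (Het solvent 4 and WT solvent 1). Without them, 11 member calls over the FK228 and genotype comparisons were lost. For other pathway genes, DESeq2 called 5 in solvent and 3 with FK228, and 2 were called with FK228 with RLE factors, no filter, the stricter filter, without those libraries, only the groups compared or voom. Leaving out 1 library gave 12 to 18 members for FK228 in heterozygous cultures, 15 to 17 in wild-type ones, 0 to 2 for the solvent genotype comparison, 1 to 3 with FK228 and 0 to 0 for the interaction; for other pathway genes 32 to 40, 38 to 44, 1 to 4, 1 to 2 and 0 to 0. Replicate numbers did not pair samples (correlations of deviations -0.23 to 0.17), and with them as a replicate block 12 members were called for FK228 in wild type (15 in heterozygous cultures), 0 between genotypes in solvent and 1 with FK228. Depth limits members whose level was near the 0.0452 to 0.0787 CPM of 1 read.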
